A study of Mus musculus with 8 samples.

Results

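Chemokines and their receptors were followed across 4 groups of Affymetrix arrays from the small intestine of Apc(Min/+) mice. A gene was taken as a member when its symbol in the platform annotation was Ccl, Cxcl, Ccr or Cxcr with a number, or was Cx3cl1, Cx3cr1 or Xcl1, and when it had a probe set listed for that gene alone. The rule found 49 genes among the 18194 genes with a single-gene probe set, represented by 77 of the 45101 probe sets. All mice carried the Apc Min allele, under which intestinal tumours form, and Spint1 alleles flanked by loxP sites (Spint1 flox/flox) on a C57BL/6 background, and all were fed the AIN-76 diet. Spint1 encodes HAI-1, a membrane-bound inhibitor of serine proteases. The deficient mice also carried Vil-Cre, whose villin promoter directs deletion of Spint1 to the intestinal epithelium, so other cells of the tissue kept the gene. The groups were non-tumour mucosa and tumours of control mice (Apc Min/+, Spint1 flox/flox) and of deficient mice (Apc Min/+, Spint1 flox/flox, Vil-Cre), with 2 arrays each. The labels used here give no age or sex and do not state if both arrays in a group came from different mice, nor if mucosa and tumour came from the same mouse, so the p-values measure only the spread between these samples, which may be technical.

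Chemokines are small secreted proteins that bind G protein-coupled receptors on leukocytes and guide where these cells go. In the small intestine, epithelial cells release chemokines that hold lymphocytes in the lining, while ligands of CXCR2 draw neutrophils and ligands of CCR2 draw monocytes to inflamed tissue. Many of the genes lie side by side in the genome, in runs that arose by gene duplication. Among protein-coding genes of assembly GRCm38.p6, Ccl2, Ccl7, Ccl11, Ccl12, Ccl8 and Ccl1 are consecutive members, as are Ccl5, Ccl9, Ccl6, Ccl3 and Ccl4, and as are Cxcl3, Cxcl15, Cxcl1 and Cxcl2. In bulk tissue, fewer cells of a type and less RNA per cell cannot be told apart.

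Promoter sequence was at hand in RefSeq (GRCm38.p6) for 36 of the 49 members. Those without one included Cxcl5, Ccl2, Ccl5, Ccl7, Ccl11, Cxcl11 and Cxcl17, which could not be searched for motifs. A kappaB motif, the binding motif of NF-kappaB, was searched in the loose form GGNNNTTCC on both strands in the 250 bases before each start. It was present in 12 of these 36 members (33.3%) and in 17.6% of 27025 genes. An interferon-stimulated response element, searched as GAAANNGAA on both strands in the same window, was present in 6 members (16.7%), Ccl1, Ccl3, Ccr2, Cxcl9, Cxcl10 and Cxcl14, and in 8.18% of all genes. The 12 members with a kappaB match were Cxcl1, Cxcl2, Cxcl3, Cxcl9, Cxcl10, Cx3cl1, Ccl1, Ccl9, Ccl12, Ccl20, Ccr3 and Ccr6. A match is a description of the letters and not a measured binding site. The 220 bases before the start are printed 5′ to 3′ for 3 neighbouring CXCR2 ligands whose RNA was higher in tumours, and for Cxcl9 and Cxcl10, interferon-induced CXCR3 ligands that held both motifs. Capitals mark the matches to either motif, and adjoining capitals can be matches on both strands that overlap.

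Cxcl1, chr5:90891025-90891244, plus strand: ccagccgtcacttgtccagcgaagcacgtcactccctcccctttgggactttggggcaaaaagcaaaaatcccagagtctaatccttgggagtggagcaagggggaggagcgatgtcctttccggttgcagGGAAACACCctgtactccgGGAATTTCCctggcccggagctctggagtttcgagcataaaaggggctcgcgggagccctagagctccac
Cxcl2, chr5:90903679-90903898, plus strand: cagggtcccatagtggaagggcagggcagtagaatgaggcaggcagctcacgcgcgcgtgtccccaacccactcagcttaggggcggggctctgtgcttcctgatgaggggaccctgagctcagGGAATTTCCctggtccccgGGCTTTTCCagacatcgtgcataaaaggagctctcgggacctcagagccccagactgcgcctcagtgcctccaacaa
Cxcl3, chr5:90785881-90786100, plus strand: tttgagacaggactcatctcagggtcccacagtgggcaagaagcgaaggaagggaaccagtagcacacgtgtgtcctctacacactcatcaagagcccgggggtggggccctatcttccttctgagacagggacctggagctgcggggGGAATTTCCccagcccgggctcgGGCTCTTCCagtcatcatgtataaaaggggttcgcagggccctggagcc
Cxcl9, chr5:92328080-92328299, minus strand: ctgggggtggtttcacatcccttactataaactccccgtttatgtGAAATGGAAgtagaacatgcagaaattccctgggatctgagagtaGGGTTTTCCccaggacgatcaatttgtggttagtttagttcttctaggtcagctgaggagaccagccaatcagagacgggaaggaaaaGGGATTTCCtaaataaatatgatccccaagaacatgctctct
Cxcl10, chr5:92348890-92349109, minus strand: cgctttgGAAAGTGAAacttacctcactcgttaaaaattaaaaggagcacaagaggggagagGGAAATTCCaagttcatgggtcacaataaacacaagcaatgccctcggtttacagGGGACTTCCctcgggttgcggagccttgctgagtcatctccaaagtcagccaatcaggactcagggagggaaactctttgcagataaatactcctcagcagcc

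The letters GGAATTTCC, which match on both strands, stood in all 3 CXCR2 ligand promoters, 70 to 62 bases before the start of Cxcl1, 96 to 88 before that of Cxcl2 and 72 to 64 before that of Cxcl3. In Cxcl10 the interferon element read GAAAGTGAA at 213 to 205 bases before the start, followed by kappaB matches at 158 to 150 and at 103 to 95 bases. Cxcl9 had GAAATGGAA at 175 to 167 bases and kappaB matches at 130 to 122 and at 42 to 34 bases.

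Values are the deposited log2 signals, and each gene is represented by its brightest single-gene probe set. Of the 49 members, 38 had a mean signal at or above 5.20 (log2), which 40% of probe sets fell short of, and were tested with limma among 13119 genes. The other 11 were Ccl1, Ccl3, Ccl12, Cxcl15, Ccr1l1, Ccr3, Ccr4, Ccr7, Ccr8, Cxcr2 and Cxcr5, so the receptor for the neutrophil-attracting ligands was among the genes too dim to test. The 10 brightest members were Ccl25 (mean log2 signal 13.32 over the 8 arrays), Ccl6 (11.26), Ccl5 (11.04), Cx3cl1 (10.19), Cxcl16 (9.78), Ccl9 (9.61), Ccl28 (9.14), Ccr9 (8.35), Ccl24 (8.03) and Ccl11 (7.84). Signals of different probe sets are not on a common scale, so this does not order the amounts of RNA.

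**Figure D1:**
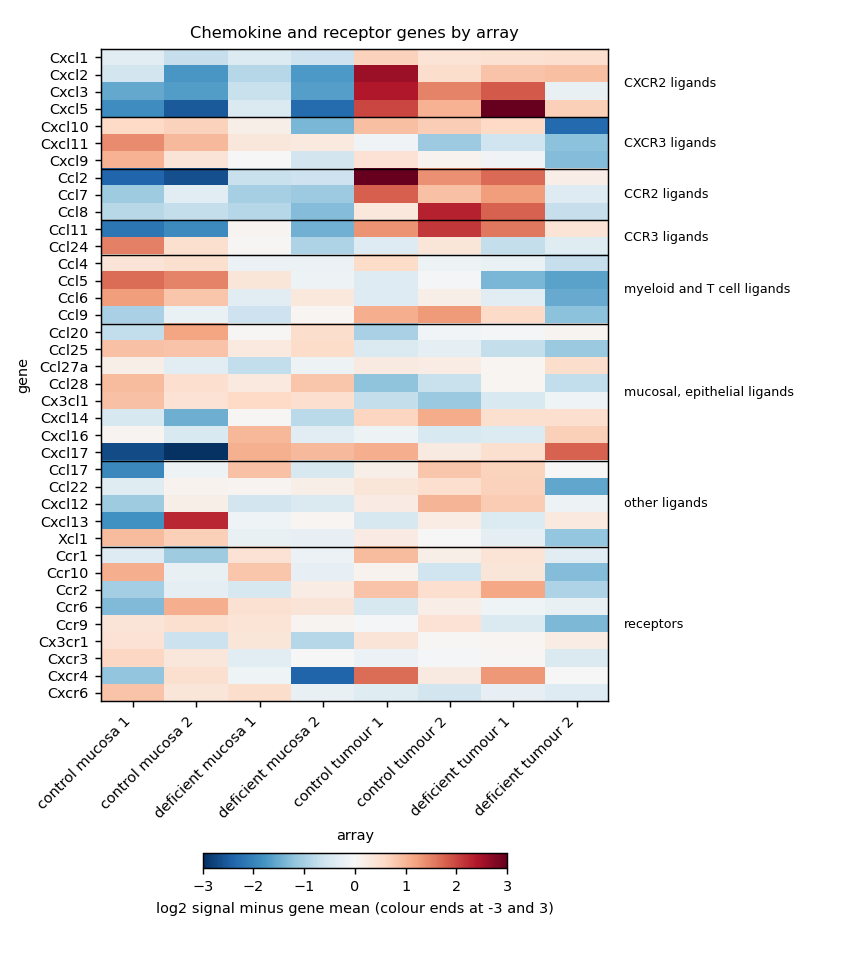
Log2 signal of the 38 tested chemokine and receptor genes on each of the 8 arrays, shown as the difference from the gene's own mean over all arrays (red above, blue below, colour ends at -3 and 3) and grouped by receptor or source. The CXCR2 and CCR2 ligands are blue in control mucosa and mostly red in tumours, and Ccl5, Ccl25, Ccl28 and Cx3cl1 run the opposite way.

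Epithelial markers were bright, with an even log2 summed signal of 17.47 to 17.94 for the 8 of 9 genes found, matching the labelled tissue. Of these genes only Vil1 was called, with a tumour difference of -0.58 averaged over genotypes (adjusted p = 0.0301). Spint1 read 12.87 and 13.00 in control mucosa, 12.46 and 12.25 in deficient mucosa, 12.75 and 13.06 in control tumours, and 11.76 and 11.84 in deficient tumours. It was lower in deficient mice by 0.58 in mucosa (adjusted p = 0.271) and by 1.10 in tumours (adjusted p = 0.779), in every array without overlap and without passing the test. Whether its probes lie in the deleted part was not tested. Arrays differed in RNA quality and labelling controls. The second control tumour array gave 25.88 for the Gapdh signal near its 3′ end over that near its 5′ end, where the others gave 0.803 to 1.77, and the spike-in control signal was 8.12 to 8.51 on the second control mucosa, second deficient mucosa and second deficient tumour arrays against 6.36 to 7.12 on the other 5.

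The first question was which chemokines differed between tumours and mucosa, averaged over both genotypes. All 4 tested CXCR2 ligands (Cxcl1, Cxcl2, Cxcl3 and Cxcl5), all 3 tested genes grouped here as CCR2 ligands (Ccl2, Ccl7 and Ccl8), Ccl11, Cxcl14 and Cxcl17 were higher in tumours. Ccl5, Ccl6, Ccl25, Ccl28, Cx3cl1, Cxcl11 and Cxcr6 were lower. At an adjusted p under 0.05, 10 members rose and 7 fell, or 17 of the 38 tested (44.7%), against 35.8% of all genes tested, 25.7% higher and 10.1% lower. The median member difference was -0.02 on the log2 scale, against 0.20 over all genes. Of the 17 calls, 14 held in each of the 15 alternative settings in which the gene was tested. The exceptions were Ccl6, Ccl8 and Cxcr6, which were called in 5 of 15, 4 of 15 and 6 of 14 settings, with adjusted p up to 0.128, and the count was 14 without the second control tumour array.

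All 4 tested CXCR2 ligands, which attract neutrophils, rose in tumours, with a median log2 difference of 2.59. Cxcl5 read 5.87 and 5.22 in control mucosa, 7.30 and 5.43 in deficient mucosa, 9.74 and 8.76 in control tumours, and 11.08 and 8.45 in deficient tumours. Every tumour array was above every mucosa array, and the difference was 3.56 ± 0.65 (log2, standard error of the fit; adjusted p = 0.00558), or 2.90 and 4.22 without the first and the second deficient tumour array. Cxcl3 read 4.65 and 4.51 in control mucosa, 5.52 and 4.53 in deficient mucosa, 8.59 and 7.68 in control tumours, and 8.03 and 5.95 in deficient tumours. Its mucosa signals were mostly below the filter level, so the 2.76 ± 0.48 difference (adjusted p = 0.00473) is given as at least 4.86-fold, with dim arrays raised to that level. Cxcl2 read 6.89 and 5.70 in control mucosa, 6.59 and 5.72 in deficient mucosa, 10.02 and 7.98 in control tumours, and 8.28 and 8.34 in deficient tumours. It rose by 2.43 ± 0.48 (adjusted p = 0.00784), with the first control tumour array highest. Cxcl1 read 7.45 and 7.11 in control mucosa, 7.39 and 7.17 in deficient mucosa, 8.49 and 8.20 in control tumours, and 8.26 and 8.30 in deficient tumours. Its brightest probe set, of a design that can pick up related transcripts, gave a rise of 1.03 ± 0.18 (adjusted p = 0.00481), and the gene's other probe sets gave 2.77 and 2.17.

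The tested genes grouped as CCR2 ligands also rose, as did Ccl11 (eotaxin), an eosinophil attractant and 1 of the 2 genes grouped as CCR3 ligands. These groups are labels, each gene was put in 1 group only, and receptor binding was not measured. Ccl2 read 3.11 and 2.86 in control mucosa, 4.82 and 4.86 in deficient mucosa, 8.51 and 6.86 in control tumours, and 7.18 and 5.69 in deficient tumours. All 4 mucosa arrays lay below the filter level and all 4 tumour arrays above it, a rise of 3.15 ± 0.44 (adjusted p = 0.00221) or at least 3.62-fold. Ccl7, its neighbour, read 4.23 and 4.96 in control mucosa, 4.29 and 4.20 in deficient mucosa, 7.08 and 6.16 in control tumours, and 6.54 and 4.90 in deficient tumours. It rose by 1.75 ± 0.40 (adjusted p = 0.0131), at least 2.06-fold, with the second deficient tumour array inside the mucosa range. Ccl8 read 6.47 and 6.60 in control mucosa, 6.44 and 6.00 in deficient mucosa, 7.63 and 9.62 in control tumours, and 9.09 and 6.61 in deficient tumours. Its rise of 1.86 ± 0.60 (adjusted p = 0.0469) was among the calls that other settings ended, and it was 1.24 without the first deficient tumour array and 2.48 without the second. Ccl11 read 5.66 and 5.92 in control mucosa, 7.93 and 6.40 in deficient mucosa, 9.19 and 9.96 in control tumours, and 9.42 and 8.24 in deficient tumours. It rose by 2.72 ± 0.41 (adjusted p = 0.00291), each tumour array being above each mucosa array. Ccl24, another eosinophil attractant, read 9.54 and 8.51 in control mucosa, 8.07 and 7.10 in deficient mucosa, 7.65 and 8.39 in control tumours, and 7.32 and 7.67 in deficient tumours, and its difference of -0.54 was not called.

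**Figure D2:**
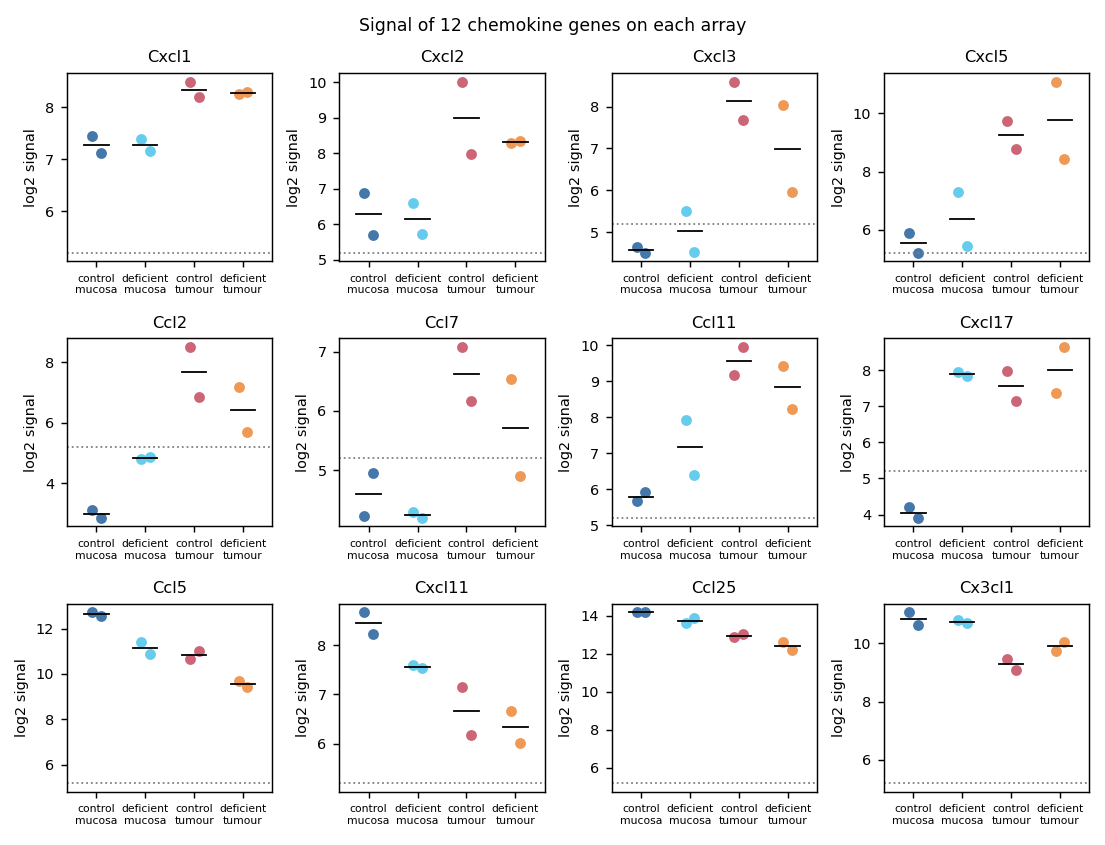
Log2 signal on each array (vertical axis) in the 4 groups (horizontal axis) for 12 chemokine genes, with 1 point per array, group means as bars and the filter level of 5.20 as a dotted line. Ccl2, Ccl7, Cxcl3 and Cxcl17 lie below that line in control mucosa, and Ccl5, Cxcl11, Ccl25 and Cx3cl1 have their highest group mean there.

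Of the 8 mucosal and epithelial ligands, 3 fell and 2 rose. Ccl25, which draws Ccr9-bearing lymphocytes to the small intestine, read 14.19 and 14.17 in control mucosa, 13.61 and 13.86 in deficient mucosa, 12.88 and 13.04 in control tumours, and 12.60 and 12.20 in deficient tumours. The groups were tightly spaced and the fall of -1.28 ± 0.18 (adjusted p = 0.00226) had no overlap between tissues, while a dimmer probe set of the gene gave -0.11. Ccl28, which attracts antibody-secreting cells, read 10.09 and 9.64 in control mucosa, 9.44 and 9.96 in deficient mucosa, 7.94 and 8.47 in control tumours, and 9.20 and 8.40 in deficient tumours, a difference of -1.28 ± 0.27 (adjusted p = 0.00905). Cx3cl1 (fractalkine), a ligand anchored in the membrane, read 11.07 and 10.62 in control mucosa, 10.79 and 10.69 in deficient mucosa, 9.47 and 9.08 in control tumours, and 9.74 and 10.06 in deficient tumours, a difference of -1.21 ± 0.20 (adjusted p = 0.00389). All 3 had every tumour array below every mucosa array. Cxcl14, a chemokine of epithelia and stroma, went the other way and read 7.18 and 6.20 in control mucosa, 7.70 and 6.86 in deficient mucosa, 8.30 and 8.78 in control tumours, and 8.15 and 8.16 in deficient tumours, a rise of 1.36 ± 0.29 (adjusted p = 0.0108). Cxcl17, a mucosal chemokine, read 4.20 and 3.91 in control mucosa, 7.94 and 7.85 in deficient mucosa, 7.97 and 7.15 in control tumours, and 7.37 and 8.64 in deficient tumours. Only the 2 control mucosa arrays were low, and the averaged rise of 1.81 ± 0.32 (adjusted p = 0.00521, at least 2.35-fold) came from control mice. Ccl20, Ccl27a and Cxcl16 were not called.

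Ccl5, a product of T and NK cells, read 12.72 and 12.53 in control mucosa, 11.40 and 10.89 in deficient mucosa, 10.66 and 11.02 in control tumours, and 9.68 and 9.43 in deficient tumours. It fell by -1.69 ± 0.20 (adjusted p = 0.00134). Ccl6, a ligand of CCR1 made by myeloid cells, read 12.52 and 12.08 in control mucosa, 10.92 and 11.58 in deficient mucosa, 10.86 and 11.44 in control tumours, and 10.93 and 9.74 in deficient tumours, and its difference was -1.03 ± 0.32 (adjusted p = 0.0404). Of the CXCR3 ligands, which interferon induces, Cxcl11 alone was called and read 8.67 and 8.23 in control mucosa, 7.59 and 7.54 in deficient mucosa, 7.15 and 6.17 in control tumours, and 6.66 and 6.02 in deficient tumours, a difference of -1.51 ± 0.28 (adjusted p = 0.00569). Cxcl9 and Cxcl10 had differences of -0.44 and -0.04. Among receptors, 9 of 16 were tested and Cxcr6, the receptor for Cxcl16 on T cells, was the one called. It read 6.82 and 6.32 in control mucosa, 6.48 and 5.72 in deficient mucosa, 5.60 and 5.40 in control tumours, and 5.71 and 5.56 in deficient tumours, a difference of -0.77 ± 0.23 (adjusted p = 0.0358).

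The 8 other tested receptors were not called in tumours as deposited. Ccr9, the receptor for Ccl25, differed by -0.68 averaged over genotypes, and its other probe set above the filter by -1.12. The mean of its probe sets was called lower at -0.90 (adjusted p = 0.0198). Ccr9 was also called lower with quantile normalization (adjusted p = 0.0466) and the spike-in batch (adjusted p = 0.0496). It was not called with no filter, the mean-variance trend or the replicate block. Cxcr3, the receptor for Cxcl9, Cxcl10 and Cxcl11 on T cells, read 7.45 and 7.17 in control mucosa, 6.48 and 6.80 in deficient mucosa, 6.64 and 6.78 in control tumours, and 6.87 and 6.39 in deficient tumours, and was highest in control mucosa. Cxcr4, the receptor for Cxcl12, read 5.21 and 6.86 in control mucosa, 6.26 and 3.99 in deficient mucosa, 8.05 and 6.66 in control tumours, and 7.68 and 6.36 in deficient tumours, with arrays of the same group more than 1 log2 unit apart throughout. Ccr2, the monocyte receptor for Ccl2, read 4.33 and 5.05 in control mucosa, 4.86 and 5.57 in deficient mucosa, 6.21 and 5.85 in control tumours, and 6.50 and 4.41 in deficient tumours, so its deficient tumour arrays spanned more than 2 log2 units. Cx3cr1, the receptor for Cx3cl1 on macrophages, read 7.75 and 6.68 in control mucosa, 7.68 and 6.46 in deficient mucosa, 7.69 and 7.36 in control tumours, and 7.38 and 7.53 in deficient tumours, and its groups overlapped. Of the ligands not called, Cxcl12 read 6.39 and 7.63 in control mucosa, 6.90 and 7.02 in deficient mucosa, 7.70 and 8.48 in control tumours, and 8.22 and 7.29 in deficient tumours, and Cxcl16, which epithelium and macrophages display, read 9.85 and 9.32 in control mucosa, 10.78 and 9.47 in deficient mucosa, 9.63 and 9.33 in control tumours, and 9.37 and 10.49 in deficient tumours. Ccl4, a product of T cells and macrophages, ranged from 6.51 to 7.77, with its groups overlapping. Over the 8 arrays Ccl22 ranged from 3.64 to 5.90, Ccl27a from 5.86 to 7.12, and the receptor Ccr10 from 5.10 to 7.49.

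Some cell type marker lists also differed between groups, and others overlapped between tissues. The T and NK cell list had 11 of 12 genes found, with Cd2 and Cd8b1 under the filter, and its log2 summed signal was 14.32 to 14.39 in control mucosa, 12.86 to 13.23 in deficient mucosa, 13.14 to 13.44 in control tumours and 11.55 to 12.36 in deficient tumours. Neutrophil markers (7 of 9 found, all above the filter) were 8.11 to 8.87, 9.22 to 10.95, 11.48 to 12.26 and 10.50 to 10.62 in the same order. In tumours this sum was carried mostly by S100a8 and S100a9, the only genes of the list called higher there averaged over genotypes. Of the rest, Csf3r, Il1r2 and Mmp8 had higher means in control tumours than in control mucosa, and Elane and Mpo had lower ones. Fibroblast markers (7 of 7) were 11.09 to 11.24, 12.13 to 12.55, 14.77 to 14.89 and 14.30 to 14.36 in that order of groups. Macrophage markers (10 of 10) were 12.93 to 13.47 in mucosa and 13.42 to 13.89 in tumours. Averaged over genotypes, Cd14 (1.79), Cd68 (1.08) and Mrc1 (0.82) were called higher in tumours and Itgam (-1.28) lower. Eosinophil markers (3 of 4 found, with Epx under the filter) were 7.45 to 8.51 in mucosa and 5.87 to 8.72 in tumours. Dendritic and plasma cell lists also overlapped between tissues. Mast cell markers (6 of 6 found, with Tpsb2 under the filter) were 11.33 to 12.44 in control mucosa, 10.31 to 10.34 in deficient mucosa, 15.41 to 15.45 in control tumours and 12.49 to 15.03 in deficient tumours. All 5 tested mast cell markers were called higher in tumours averaged over genotypes, Fcer1a by 4.30. Of the 5 endothelial markers, Tek (1.43) and Cdh5 (1.63) were called higher, and of the 4 lymphatic endothelial markers 3 were, with a summed signal of 8.75 to 10.15 in mucosa and 10.62 to 11.02 in tumours. The part of these cells in the chemokine differences was not tested.

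Other genes of the chemokine system were taken as lists, whose counts stand beside the 35.8% of all genes called in this comparison. Of 12 tested decoy receptors, related ligands and modifiers, 6 rose and 2 fell in tumours. They included the scavenging receptor Ackr3 (2.39) and the chemoattractant Rarres2 (1.29), while Dpp4, the peptidase that trims and inactivates several chemokines, differed by -2.27. Of 23 genes of receptor signalling and leukocyte homing, 4 rose and 1 fell, a smaller share than that of all genes, among them the adhesion molecules Icam1 (1.81) and Madcam1 (1.34) and the signalling enzyme Plcb3 (-1.08). Of 16 cytokines, receptors and factors that induce chemokines, 3 rose and 3 fell, a share near that of all genes. Il1b (2.18), Il1a (1.40) and their receptor Il1r1 (2.86) were higher. The interleukin 22 receptor subunit Il22ra1 (-1.88), Ifngr2 (-1.28) and Relb (-0.83) were lower.

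Within control mice, 15 members were called, 9 higher and 6 lower, or 39.5% against 28.8% of all genes (21.2% higher and 7.64% lower). With 1 log2 or more, no overlap and an unadjusted p under 0.05, 20 members qualified, against 29.9% of all genes. Ccl2 differed by 4.70 ± 0.62 (adjusted p = 0.00278), a value that was 3.88 without the first control tumour array and 5.53 without the second, and with its dim mucosa values raised to the filter level the rise was at least 5.59-fold. Ccl11 differed by 3.78 ± 0.58 (adjusted p = 0.00455, 13.7-fold), and by 4.17 without the first control tumour array, so the order of these 2 genes is not settled. Cxcl5 (3.71), Cxcl3 (3.55), Cxcl17 (3.51), Cxcl2 (2.70), Ccl7 (2.03), Cxcl14 (1.85) and Cxcl1 (1.06) were the other rises. The Cxcl1 value depends on the probe set, as its other probe sets differed by 3.89 and 3.12 in control mice. In deficient mice those probe sets differed by 1.66 and 1.22. The falls were Ccl5 (-1.79), Cxcl11 (-1.79), Ccl28 (-1.66), Cx3cl1 (-1.57), Ccl25 (-1.22) and Cxcr6 (-1.07). The 20 members that met the rule had no overlap, so keeping their sign among arrays with a low spike-in signal was fixed in advance. With that signal as a batch the Cxcl5 difference was 2.85. That fit ended the calls of Ccl7 and Cxcl2 (adjusted p of 0.0546 to 0.0758) and added one for Ccr10, which differed by -1.35 (adjusted p = 0.0335). Many calls in this comparison ended when 1 array was left out, which also leaves fewer degrees of freedom. The Ccl7 call ended without either deficient mucosa array, although those arrays are not part of its difference. The Cxcl2 difference was 1.68 without the first control tumour array and 3.72 without the second. That second array had the high Gapdh ratio. Leaving it out ended the calls of Ccl7, Cxcl5, Cxcl11, Cxcl14 and Cxcr6, whose differences were then -1.30 to 4.20. Ccl2, Ccl11, Ccl5, Cx3cl1 and Cxcl17 held in every setting in which they were tested. The count was 7 with the first control tumour array left out, with Cxcl1, Cxcl2, Cxcl3, Cxcl5, Ccl7, Ccl25, Ccl28 and Cxcr6 lost at adjusted p of 0.0524 to 0.160.

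Ccl9 and Ccr1 were just short of a call in control mice. Ccl9, a myeloid CCR1 ligand, was 8.64 and 9.41 in control mucosa, 8.98 and 9.67 in deficient mucosa, 10.70 and 10.89 in control tumours, and 10.17 and 8.39 in deficient tumours. Ccr1, the receptor it binds, was 7.35 and 6.65 in control mucosa, 8.15 and 7.54 in deficient mucosa, 8.67 and 7.91 in control tumours, and 8.13 and 7.41 in deficient tumours. Their differences were 1.77 and 1.29 (adjusted p = 0.0550 each), and both probe sets of each gene pointed the same way in control mice. Ccl17, which attracts T cells through Ccr4, was 4.48 and 6.27 in control mucosa, 7.28 and 5.94 in deficient mucosa, 6.59 and 7.25 in control tumours, and 7.07 and 6.41 in deficient tumours, with a difference of 1.55 (adjusted p = 0.120) and a wide spread in control mucosa.

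Within deficient mice, 2 members were called, both lower, or 5.26% against 4.2% of all genes. They were Ccl5, with a difference of -1.59 ± 0.28 (adjusted p = 0.0338), and Ccl25, at -1.33 ± 0.25 (adjusted p = 0.0386). With the spike-in signal as a batch, Ccl25 was no longer called (adjusted p = 0.0523) and Cxcl5 was (adjusted p = 0.0420). The other Ccl25 probe set differed by 0.01, and the mean of its probe sets by -0.66 (adjusted p = 0.162). The Ccl25 call held in 2 of 15 alternative settings and that of Ccl5 in 8. Neither held without the first or the second array of deficient mucosa or tumours, at adjusted p of 0.0742 to 0.141, and without the first or the second control mucosa array it was 0.0576 to 0.0617. By the rule of 1 log2, no overlap and unadjusted p, 11 members qualified, against 14.6% of all genes. The CXCR2 ligands had differences of 3.40 (Cxcl5, adjusted p = 0.0796), 2.16 (Cxcl2, 0.113) and 1.97 (Cxcl3, 0.131), and Cxcl1, with a smaller one, had an adjusted p of 0.0696. Ccl11 differed by 1.67 (adjusted p = 0.135), Ccl2 by 1.60 (0.164) and Ccl7 by 1.47 (0.162), and as Ccl2 and Ccl7 started from mucosa below the filter level their differences were at least 2.35-fold and 1.59-fold. Single arrays moved these values widely. Without the first deficient tumour array they were 2.09 (Cxcl5), 0.93 (Cxcl3), 1.08 (Ccl11), 0.85 (Ccl2) and 0.65 (Ccl7), and without the second they were 4.72, 3.01, 2.26, 2.34 and 2.29. Leaving out the first or the second deficient mucosa array gave 2.43 and 0.91 for Ccl11. The tumour comparisons of the 2 genotypes share no arrays, and of the 38 members 34 had the same sign in both, against 78.7% of all genes.

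**Figure D3:**
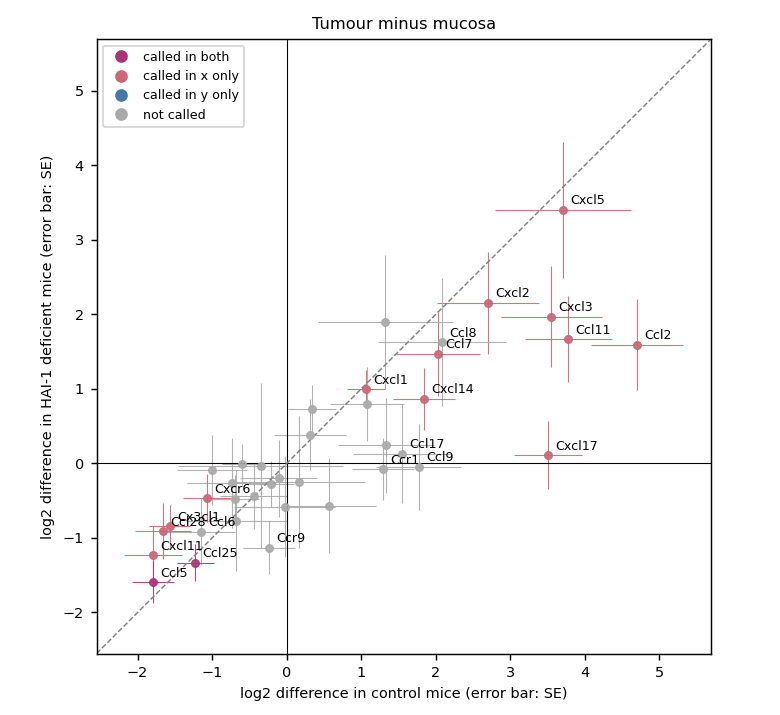
Tumour minus mucosa difference on the log2 scale in control mice (horizontal axis) and in deficient mice (vertical axis), 1 point for each of the 38 tested members with its standard error as bars, with colour showing where the gene was called and the diagonal marking equal differences. Ccl2 (4.70 and 1.60) and Cxcl17 lie far from the diagonal, and Cxcl5 (3.71 and 3.40), Ccl5 and Ccl25 lie near it.

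The next comparison was HAI-1 loss in non-tumour mucosa. Cxcl17 was the 1 member called, or 2.63% against 1.05% of all genes, and it was 3.84 ± 0.45 higher in deficient mucosa (adjusted p = 0.0348, at least 6.47-fold). Its control values of 4.20 and 3.91 lay below the filter level, and its deficient values of 7.94 and 7.85 stood in the range of the tumours, 7.15 to 8.64. The difference was 3.74 among arrays with a low spike-in signal and 3.94 among those with a high one. The call did not hold when any of the 6 arrays of mucosa or control tumours was left out (adjusted p of 0.0659 to 0.150), although the difference stayed at 3.70 to 3.99.

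By the rule of 1 log2, no overlap and unadjusted p, 6 members qualified in mucosa (15.8%), against 10.3% of all genes. Besides Cxcl17 they were Ccl2, Ccl11, Ccl5, Ccl24 and Xcl1. Ccl2 was 3.11 and 2.86 in control mucosa and 4.82 and 4.86 in deficient mucosa, so that all 4 values were below the filter level and no fold is given. Ccl11 differed by 1.37 ± 0.58 (adjusted p = 0.281). Ccl5 differed by -1.48 ± 0.28 (adjusted p = 0.0584), a value that passed the threshold with a mean-variance trend (0.0246) or a filter at the 60th percentile (0.0310). Ccl24 differed by -1.44 ± 0.47 (adjusted p = 0.177). Xcl1, a chemokine of activated T and NK cells, was 7.05 and 6.83 in control mucosa, 5.88 and 5.86 in deficient mucosa, 6.36 and 6.13 in control tumours, and 5.83 and 4.94 in deficient tumours, with a difference of -1.08 ± 0.33 (adjusted p = 0.152).

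The probe sets of Cxcl1 and Cxcl12 disagreed here. The brightest Cxcl1 probe set differed by -0.01 between deficient and control mucosa, and the others by 1.97 and 1.48. For Cxcl12, which retains Cxcr4-bearing cells, the brightest probe set differed by -0.05 and another above the filter by 2.35. The dimmer Cxcl12 probe set read 5.36 and 4.90 in control mucosa and 7.10 and 7.87 in deficient mucosa.

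In tumours, HAI-1 loss gave no called member, against 0% of all genes (0 of 13119). At an unadjusted p under 0.05 there were 4 members, against 6.11% of all genes, and 3 of them met the rule of 1 log2 and no overlap, against 3.36%. All 4 were lower in deficient tumours, Ccl5 by -1.28 ± 0.28, Ccl9 by -1.52 ± 0.58, Ccr9 by -1.08 ± 0.35 and Xcl1 by -0.86 ± 0.33 (adjusted p = 0.779 each). Ccr9, the receptor for Ccl25 on gut lymphocytes, was 8.74 and 8.84 in control mucosa, 8.75 and 8.44 in deficient mucosa, 8.31 and 8.79 in control tumours, and 7.92 and 7.01 in deficient tumours. The second deficient tumour array was the lowest for Ccr9 and Ccl9, and without it the Ccl9 difference was -0.62, against -2.41 without the first. The other Ccr9 probe set above the filter differed by -0.13. The median member difference of -0.45 was -0.13 without the second deficient tumour array and -0.80 without the first.

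Averaged over tissues, 0 members were called, against 0% of all genes, and 10 had an unadjusted p under 0.05, against 16.3%. Ccl5 differed by -1.38 (adjusted p = 0.0698) and was lower in deficient than in control tissue on every array within mucosa and within tumours. Cxcl17 differed by 2.14 (adjusted p = 0.0831) and Xcl1 by -0.97 (adjusted p = 0.145). Without the first deficient tumour array these 3 passed the threshold, at 0.0424, 0.0158 and 0.0435. The 3 CXCR3 ligands, which were chosen for description after their values were seen, had negative differences of -0.98 (Cxcl9, adjusted p = 0.215), -1.46 (Cxcl10, 0.305) and -0.60 (Cxcl11, 0.331). Cxcl9 read 8.27 and 7.61 in control mucosa, 7.23 and 6.68 in deficient mucosa, 7.65 and 7.33 in control tumours, and 7.12 and 5.92 in deficient tumours. Cxcl10 read 6.95 and 7.05 in control mucosa, 6.52 and 4.97 in deficient mucosa, 7.24 and 7.09 in control tumours, and 6.96 and 4.03 in deficient tumours, with both second arrays of deficient tissue low. All 9 tested T and NK cell markers also had negative differences, with a median of -1.14 and none called, and their part in these values was not tested.

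Genes of lymphoid follicles stood out on 1 array. Cxcl13, the B cell attractant of follicles, read 5.06 and 9.14 in control mucosa, 6.76 and 6.94 in deficient mucosa, 6.41 and 7.09 in control tumours, and 6.47 and 7.18 in deficient tumours, and its receptor Cxcr5, under the filter, read 4.49 and 6.58 in control mucosa, 3.76 and 2.81 in deficient mucosa, 4.73 and 3.58 in control tumours, and 2.70 and 4.10 in deficient tumours. Ccl20 and its receptor Ccr6, which mark the epithelium over follicles and the cells drawn to it, were also highest on the second control mucosa array, at 8.95 and 6.86. Of the 6 B cell and follicle markers found, 5 were highest there too, with Ms4a1 at 9.33 against 2.03 to 6.04 elsewhere and Cr2 at 7.31 against 3.71 to 5.40, although these 2 and Fcer2a had means under the filter level. The exception was Cd79a, at 6.80 there against 7.18 on the other control mucosa array and 7.28 on the first deficient one. These genes were chosen for description after their values were seen. The tumour difference of Cxcl13 in control mice was -0.35, and it was 1.69 without that array (adjusted p = 0.0461) and -2.39 without the other control mucosa array (adjusted p = 0.0216), so it has no settled direction.

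**Figure D4:**
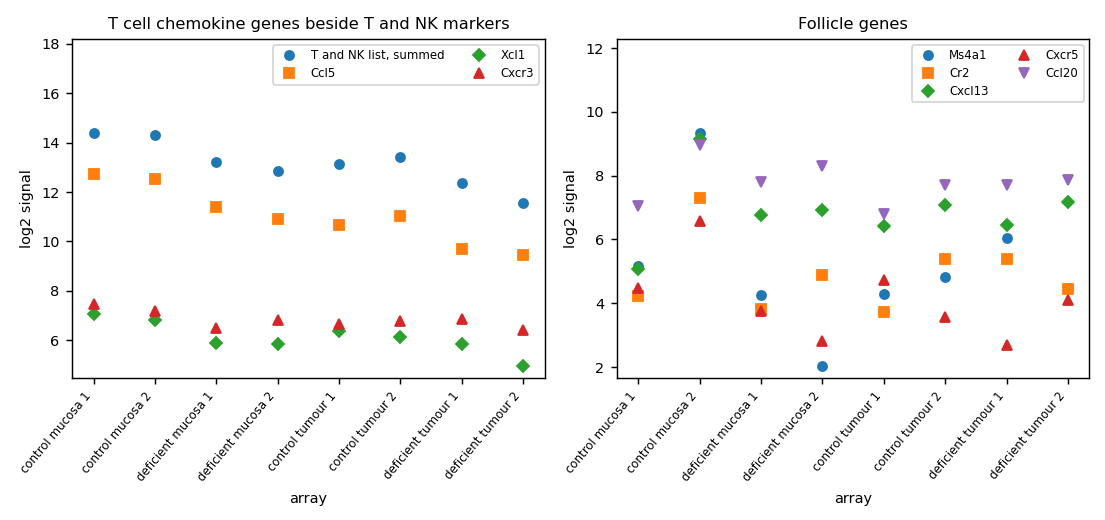
Log2 signal (vertical axis) on each of the 8 arrays (horizontal axis). The left panel shows Ccl5, Xcl1 and Cxcr3 beside the summed T and NK cell markers, all highest in control mucosa, and the right panel shows follicle genes, highest on the second control mucosa array.

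HAI-1 loss in mucosa and in tumours was measured on separate arrays. Of the 38 members, 23 had the same sign in both tissues, 19 of them lower and 4 higher, against 57.8% of all genes with the same sign. The interaction, in which the mucosal HAI-1 difference is subtracted from that of tumours, gave 0 called members, against 0% of all genes, and 3 at an unadjusted p under 0.05, against 9.23%. These were Cxcl17 (-3.40 ± 0.64, adjusted p = 0.254), Ccl2 (-3.11 ± 0.87, adjusted p = 0.346) and Ccl11 (-2.11 ± 0.82, adjusted p = 0.503). With dim arrays raised to the filter level the values were -2.25 for Cxcl17 and -1.25 for Ccl2, whose mucosa values were all below it and give no direction there. Cxcl17 and Ccl11 had mucosal differences of 3.84 and 1.37, and tumour differences of 0.44 and -0.74. None of the genes of the chemokine system, signalling or inducer lists was called in the HAI-1 comparisons. Of the cell type markers only the endothelial gene Tek was, 2.25 higher in deficient than in control mucosa (adjusted p = 0.0348).

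**Figure D5:**
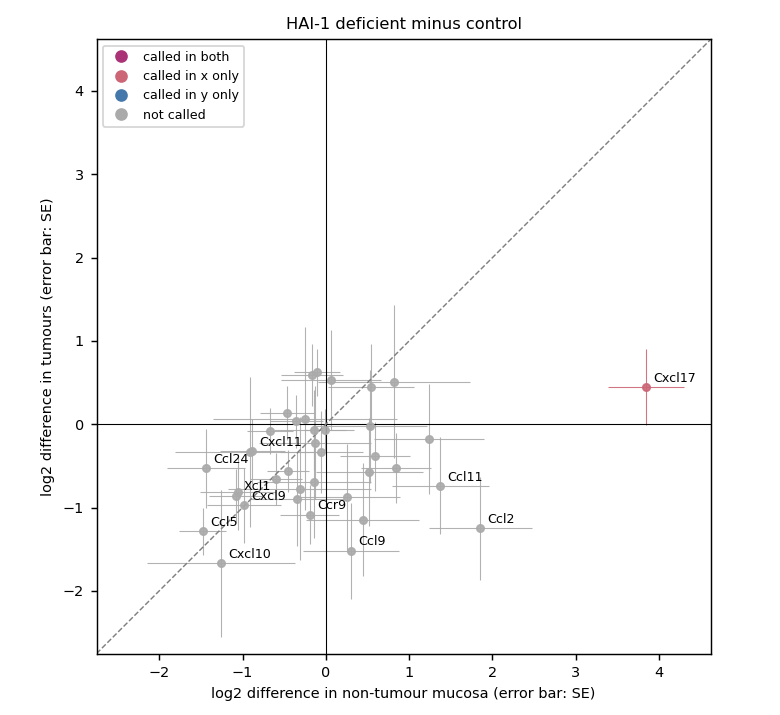
Difference with HAI-1 loss on the log2 scale in mucosa (horizontal axis) and in tumours (vertical axis), 1 point for each of the 38 tested members with its standard error as bars. Cxcl17 stands alone at 3.84 in mucosa, and 19 members including Ccl5 and Xcl1 lie in the quadrant where both differences are negative.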

How the data were processed

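Total RNA from 8 samples was hybridized to Affymetrix mouse arrays. The deposited log2 values, 1 per probe set and array, were used as given. The submitters' processing notes name MAS5 and RMA without versions or roles. On the linear scale the trimmed mean was 500.00 on every array, as MAS5 scaling gives, and detection calls were not used here. No further scaling was applied. Of 45101 probe sets, 34958 had 1 gene in the platform annotation, 932 several and 9211 none, and 34754 gene identifiers matched the GRCm38.p6 gene table. The brightest single-gene probe set stood for a gene, and genes with a mean under the 40th percentile (5.20) were left out. Another 4 matching probe sets, which list several genes, were not used for members.

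With limma 3.58.1 (R 4.3.3), 1 mean per group was estimated from the 8 arrays together (4 residual and 3.52 prior degrees of freedom), with 7 two-sided contrasts and Benjamini-Hochberg adjustment over 13119 genes. Calls needed an adjusted p below 0.05. The fit was tested on simulated data. Values on every array are given for members called in any contrast, or with an unadjusted p under 0.05, a log2 difference of at least 1 and no overlap in a pairwise contrast (23 members in all), and for others as stated. The 10 brightest members are named with their mean, and only some of the called list genes are named. A fold written "at least" has arrays under the filter raised to it. Alternatives were quantile normalization, other filters, a mean-variance trend, the mean of probe sets, replicate and spike-in blocks, and leaving out each array. Members and lists were chosen with earlier results of these data known. The motif forms are shorter and less specific than forms searched first on the same promoters, and were adopted after those results were seen. The shares of promoters holding a match differ between the forms. Figures were drawn with matplotlib 3.10.9.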

Additional observations from a re-analysis of the deposited data

Results flagged for a closer look

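A probe set that lists several genes of the Ccl21 family, ligands of Ccr7 made by lymphatic and stromal cells, was not used for the members. Its log2 signal was 1.64 higher in control tumours than in control mucosa, with values of 5.71 and 7.54 in control mucosa, 3.45 and 5.09 in deficient mucosa, 8.21 and 8.32 in control tumours, and 8.95 and 7.09 in deficient tumours. It stands here as a signal in data outside the comparisons. The family members cannot be told apart on it. Groups of 2 arrays are too small for a check of outlying samples.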

How the results depend on the processing

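The 23 members named by the rule kept their direction, under every alternative, in the comparisons where they met it. In pairwise comparisons without overlap, leaving out 1 array could not reverse a direction. Other filters, the trend and the replicate block left those differences unchanged. There, only quantile normalization, the mean of probe sets and the spike-in batch could have changed a direction. Cxcl13, outside that rule, did not keep its direction. Its tumour difference in control mice was -0.35 as deposited, 1.69 without the second control mucosa array and -2.39 without the first. The number of called members moved as follows, and the cause was not tested. For HAI-1 loss averaged over tissues it was 0 as deposited, 1 with a filter at the 60th percentile, 2 with a mean-variance trend, and 0 to 3 when 1 array was left out. For HAI-1 loss in mucosa it was 1 as deposited, 0 with no filter, 2 with the trend, and 0 to 1 with 1 array left out, and with the filter at the 60th percentile the 1 call was Ccl5 in place of Cxcl17, which was not tested there. For tumours in control mice it was 15, and 7 to 17 with 1 array left out. For tumours in deficient mice it was 2, and 1 with quantile normalization, 0 with no filter, 4 with the filter at the 60th percentile, 3 with the trend, 1 with probe sets averaged, and 0 to 1 with 1 array left out. For tumours averaged over genotypes it stayed at 14 to 18. The counts for HAI-1 loss in tumours and for the interaction were 0 in every setting. A lone array left in a group was assumed to vary like the other groups.

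Arrays with the same number were not shown to pair: deviations correlated at -0.14 to 0.22 across 13119 genes, with 2 pairs only. With the replicate number as a block, the counts were 1, 0 and 0 for HAI-1 loss in mucosa, in tumours and averaged, 16, 2 and 17 for tumours in control mice, in deficient mice and averaged, and 0 for the interaction. These were not all the same genes: in control mice Ccr1 was added, in deficient mice Cxcl5 replaced Ccl25, and in the average Ccr1 and Ccr10 replaced Ccl6 and Ccl8. With the spike-in signal as a batch the counts for tumours were 14, 2 and 18 in the same order, with Ccl7 and Cxcl2 lost and Ccr10 added in control mice, Cxcl5 in place of Ccl25 in deficient mice, and Ccl8 lost and Ccr9 and Ccr10 added in the average. Precision is limited by having 2 arrays a group, and dim signals carry large log2 errors.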
